A study of Mus musculus with 8 samples.

Results

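The transcripts of 43 genes that mark blood-derived cells were followed through 3 RNA-seq comparisons of JunB cKO and wild type mouse skin. The members are the symbols of a fixed list, grouped by the lineage each marks. The rule uses no measured value, though the list was drawn up with earlier results of these data known. They comprise 3 genes shared by most leukocytes, 12 of T and NK cells, 3 of B cells, 12 of macrophages and their relatives, 1 of Langerhans cells, 6 of neutrophils and 6 of mast cells. Each table listed all 43 members, among 26340 gene symbols for unperturbed samples, 46036 for hair plucking and 46048 for wounds. Both genotypes were on the C57BL/6 strain and are given in the labels as JunB +/+ and JunB -/-. In the JunB cKO mice the floxed gene was deleted by a Cre recombinase under the K14 promoter, which is active in the basal epidermis, so leukocytes were not the cells targeted. The unperturbed samples carry the tissue keratinocyte and no treatment, the plucked samples are skin biopsies taken 4 days after depilation, also with keratinocyte as their tissue, and the wound samples are skin biopsies taken 30 days after wounding. There were 8 libraries by the labels, of which each genotype had 1 unperturbed, 1 plucked and 2 wounded. The methods describe RNA pooled from several samples of a group before sequencing. The tables give 1 value per genotype, in FPKM, the read number scaled by transcript length and by library depth, so no spread between animals could be calculated and no comparison below carries a test.

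Skin holds its own resident leukocytes. Langerhans cells, which make the lectin langerin encoded by Cd207, sit among the keratinocytes of the epidermis, beside γδ T cells that carry the CD3 chains. Macrophages and mast cells live in the dermis, whereas neutrophils and B cells are scarce until skin is injured or inflamed. Macrophages take up debris through receptors such as the mannose receptor (Mrc1) and the haptoglobin-hemoglobin receptor (Cd163), bind antibody through Fc receptors (Fcgr1, Fcgr3, with the signaling chain Fcer1g) and depend on the receptor of CSF1 (Csf1r). Mast cells store proteases, including carboxypeptidase A3 (Cpa3), chymases (Cma1, Mcpt4) and a tryptase (Tpsb2), and are armed by the high affinity IgE receptor (Fcer1a, Ms4a2, Fcer1g).

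The tissue labels were compared with marker genes first. In the unperturbed samples the basal keratin Krt5 stood at 2592 FPKM in wild type and 2690 FPKM in JunB cKO, whereas the collagen gene Col3a1 stood at 3.63 and 1.87 FPKM and the endothelial gene Pecam1 at 0.0776 and 1.12 FPKM, values of epidermal cells with little dermis. The plucked samples held dermis as well, with Col3a1 at 2559 and 535 FPKM and Pecam1 at 29.5 and 29.6 FPKM, so their columns were not those of keratinocytes alone. The targeted gene Junb was lower in each JunB cKO column, at 31.4 against 268 FPKM in unperturbed samples, 11.7 against 40.8 FPKM after plucking and 15.4 against 33.4 FPKM in wounds. Counts were not analysed here, but the low FPKM values fell on steps worth 1 read, which gave an estimate of depth. On that estimate 1 FPKM over 1 effective kilobase corresponded to 16.9 reads in wild type and 4.98 reads in JunB cKO for unperturbed samples, 16.3 and 12.9 reads for plucking, and 43.3 and 40.3 reads for wounds, where each column joined its libraries. The 43 members together drew about 1685 reads in wild type and 648 in JunB cKO unperturbed samples, 14539 and 4263 after plucking, and 57242 and 57247 in wounds. Ratio intervals given below come from these estimated reads and cover counting error alone.

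The sequence before the transcription start is shown for 5 members on which the comparisons turn, since PU.1, a transcription factor of myeloid cells, binds a core GAGGAA and the GATA factors of mast cells bind AGATAA. RefSeq (GRCm38.p6) gave promoter windows for 35 of the 43 members, and the 250 bases before the start are written 5′ to 3′ on the gene's strand, with the motif or its reverse complement in capitals (GAGGAA for Fcgr1 and Cd163, AGATAA for the other 3). Fcgr1, the high affinity Fc receptor, and Cd163 stand for the macrophage genes, Cd207 for Langerhans cells, and Cpa3 and Ms4a2 for mast cells. The windows are chr3:96293970-96294219 (minus strand) for Fcgr1, chr6:124304401-124304650 (plus strand) for Cd163, chr6:83677858-83678107 (minus strand) for Cd207, chr3:20242182-20242431 (minus strand) for Cpa3 and chr19:11623720-11623969 (minus strand) for Ms4a2.
Fcgr1: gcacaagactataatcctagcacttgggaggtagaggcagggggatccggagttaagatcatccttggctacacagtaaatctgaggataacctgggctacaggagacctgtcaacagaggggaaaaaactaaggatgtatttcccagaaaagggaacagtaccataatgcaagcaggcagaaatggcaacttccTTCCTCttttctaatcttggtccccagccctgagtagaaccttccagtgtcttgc
Cd163: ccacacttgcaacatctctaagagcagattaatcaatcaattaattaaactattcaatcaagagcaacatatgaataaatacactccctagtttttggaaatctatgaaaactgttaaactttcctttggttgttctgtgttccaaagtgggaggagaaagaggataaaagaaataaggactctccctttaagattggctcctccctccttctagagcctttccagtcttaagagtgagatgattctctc
Cd207: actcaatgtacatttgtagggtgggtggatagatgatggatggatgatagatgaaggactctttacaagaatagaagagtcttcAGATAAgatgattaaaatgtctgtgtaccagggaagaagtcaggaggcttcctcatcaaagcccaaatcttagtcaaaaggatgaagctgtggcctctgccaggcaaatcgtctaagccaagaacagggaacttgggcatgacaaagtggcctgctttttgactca
Cpa3: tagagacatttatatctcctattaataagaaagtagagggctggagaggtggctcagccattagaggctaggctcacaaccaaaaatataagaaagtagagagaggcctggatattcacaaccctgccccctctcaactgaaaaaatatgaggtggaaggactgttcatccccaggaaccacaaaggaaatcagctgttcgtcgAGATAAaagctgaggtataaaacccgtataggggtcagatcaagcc
Ms4a2: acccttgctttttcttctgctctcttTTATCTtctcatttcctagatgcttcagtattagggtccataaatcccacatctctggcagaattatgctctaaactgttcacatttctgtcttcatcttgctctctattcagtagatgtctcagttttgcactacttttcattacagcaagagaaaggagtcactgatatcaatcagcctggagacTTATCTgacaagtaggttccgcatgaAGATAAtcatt
The Fcgr1 window holds the PU.1 core once, its first base 55 bases before the start, and the Cd163 window does not hold it. The Ms4a2 window holds AGATAA 3 times and the Cpa3 window once. On either strand, GAGGAA was present in 6 of 9 macrophage members with a window (Cd68, Clec4a3, Clec4e, Fcgr1, Fcgr3 and Mrc1) and in 25.9% of the 27025 genes of the promoter table. It was present also in 5 of 10 T and NK cell members, 4 of 6 neutrophil members, 2 of 3 pan-leukocyte members, 1 of 5 mast cell members, Cd79a and Cd207. AGATAA was present in 3 of 5 mast cell members (Cpa3, Fcer1a and Ms4a2) and in 11.4% of all genes, in 0 of 9 macrophage and 0 of 6 neutrophil members, in 2 of 10 T and NK cell members, in Ptprc and in Cd207. The AP-1 motif TGANTCA, the site to which JunB binds with its partners, was present in 3 members, Cd68, Gzmb and Cd207, and in 7.82% of all genes. In the Cd207 window printed above, that motif and the PU.1 core are left in lower case. None of the 3 motifs contains another, and a match is one of letters alone.

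The lineages took different places in the 3 tables. FPKM values were not compared between tables, because each was normalized separately, so the members were placed by their percentile among the 21441 symbols that the 3 tables share. Cd207 stood at percentile 88.0 in wild type and 84.4 in JunB cKO unperturbed samples, the highest of the members in both columns. After plucking and in wounds the highest member was Lyz2, the lysozyme of macrophages and neutrophils, at percentiles 97.4 and 91.6 after plucking and 99.0 in both genotypes of the wounds. The mast cell protease gene Cpa3 stood at percentiles 34.1 and 20.0 in unperturbed samples (0.0472 and 0.481 FPKM), 74.7 and 78.7 after plucking, and 87.8 and 91.6 in wounds. Percentiles of low genes depend on how many genes a column lists at 0. A gene at 0 took percentile 14.9 in wild type and 4.31 in JunB cKO unperturbed samples, 20.2 and 19.3 after plucking, and 12.0 and 13.7 in wounds. Low percentiles are therefore not comparable between columns. The B cell antigen receptor chain gene Cd79a stood at 0.0525 and 0.534 FPKM in unperturbed samples and was listed at 0 in both genotypes after plucking and in wounds.

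**Figure D1:**
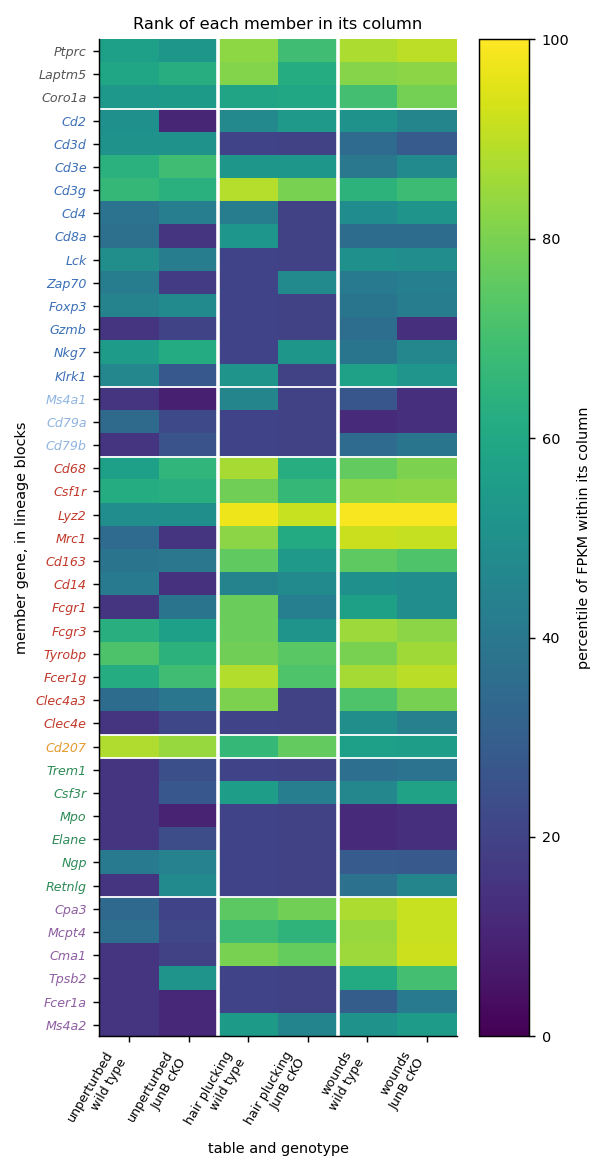
Percentile of each of the 43 members (rows, in lineage blocks) among 21441 shared symbols within each column of the 3 tables, from 0 (dark) to 100 (bright). Cd207 is bright in the unperturbed columns, and the macrophage and mast cell blocks are bright in the wounds, with Lyz2 at percentile 99.0 in both genotypes. Genes listed at 0 share a percentile that differs between columns.

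The make-up of the summed FPKM of the members differed between the tables. Cd207 made up 34.0% of the sum in wild type and 18.5% in JunB cKO unperturbed samples, whereas it made up 0.636% and 0.575% in wounds. The macrophage members made up 33.9% in both genotypes of the unperturbed samples, 68.0% and 48.8% after plucking (wild type first), and 71.8% and 64.3% in wounds. The mast cell members made up 9.38% and 20.0% after plucking, and 14.1% and 20.1% in wounds. These are shares of FPKM over the listed genes, and in such samples fewer cells of a type cannot be told apart from less RNA per cell.

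**Figure D2:**
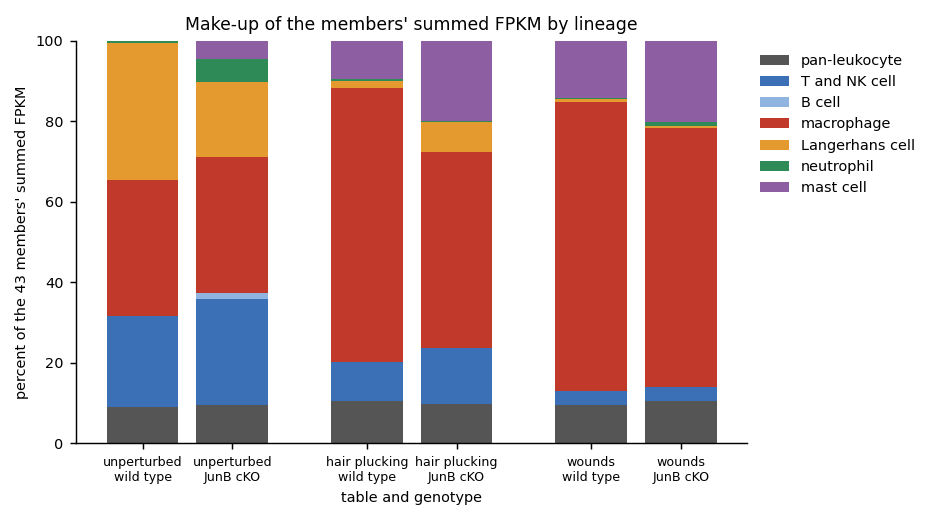
Percent of the 43 members' summed FPKM (vertical axis) taken by each lineage, with 1 bar for each genotype of each table. After plucking the macrophage part is 68.0% in wild type against 48.8% in JunB cKO, and the Langerhans cell part (Cd207 alone) is 34.0% and 18.5% in unperturbed samples.

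For each comparison a member was counted as higher or lower in JunB cKO when its log2((JunB cKO + 1)/(wild type + 1)), taken on FPKM, reached 1 or -1, a 2-fold limit that a gene under 1 FPKM in both genotypes cannot pass. The share of all genes past the limit is taken over genes with at least 1 FPKM in either genotype. A gene listed at 0 was not given a fold change, since the tables list at 0 some genes that every cell uses, among them Gapdh in both genotypes of the unperturbed samples.

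**Figure D3:**
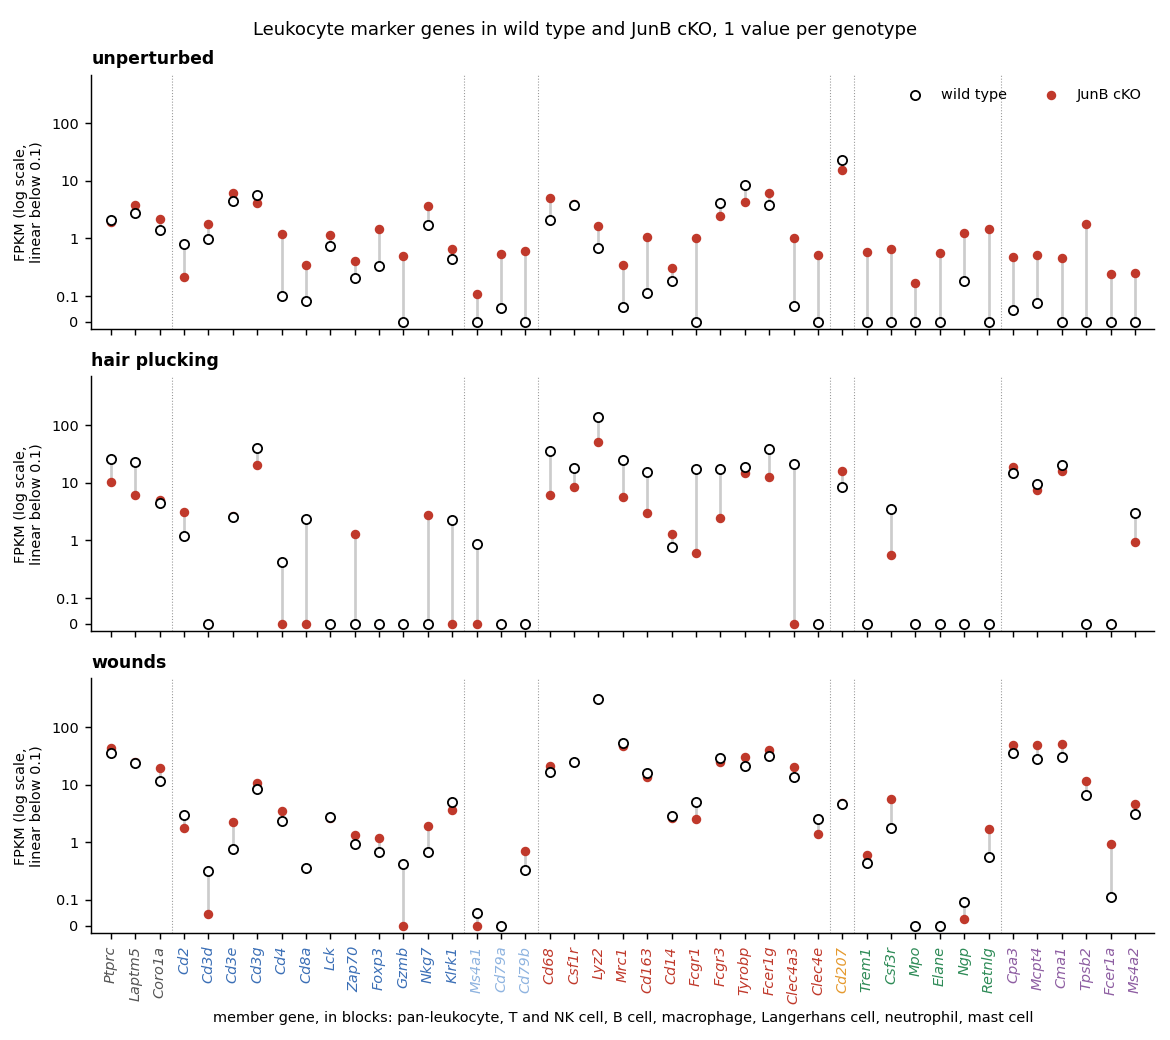
FPKM of each of the 43 members (horizontal axis, in lineage blocks) in wild type (open circles) and JunB cKO (filled circles), 1 value per genotype, on a logarithmic axis that is linear below 0.1. After plucking most macrophage members lie lower in JunB cKO, for example Cd68 at 34.9 and 6.23 FPKM, whereas in wounds the macrophage members lie closer together, for example Csf1r at 24.6 FPKM in both, and in unperturbed samples 14 members are at 0 in wild type and none in JunB cKO.

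In unperturbed samples, the comparison asked which transcripts differ with the loss of JunB before any injury. The members past the limit were at low level in JunB cKO and listed at 0 in wild type, and the most abundant member, Cd207, had a lower value in JunB cKO without passing the limit. Of the 43 members, 23 of them with at least 1 FPKM, 3 were higher (Fcgr1, Retnlg and Tpsb2) and 0 were lower, where 15.4% of all genes were higher and 1.4% were lower. The median log2 ratio was 0.49 over the members and 0.13 over all genes. Relative to the median of genes with at least 1 FPKM in both genotypes, which was -0.15, 9 members were higher. Retnlg, a resistin-like protein of neutrophils, was listed at 0 in wild type and stood at 1.48 FPKM in JunB cKO, on about 3 reads. Tpsb2 was listed at 0 and stood at 1.81 FPKM, on about 10 reads, and Fcgr1 was listed at 0 and stood at 1.01 FPKM, on about 12 reads. Tpsb2 has a close copy in Tpsab1 (0 and 1.35 FPKM), so the reads of the pair may be divided between them.

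A low signal lay over the whole JunB cKO column of the unperturbed samples. Of 1453 olfactory, vomeronasal and taste receptor genes, which skin is not known to use, 86.1% were above 0 in JunB cKO and 4.75% in wild type, with a median of 0.543 FPKM in the former and 0 in the latter. The 95th percentile of these receptor genes in JunB cKO was 1.65 FPKM, and 14 of the 43 members stood above it. Of the 3 members past the limit, Tpsb2 stood above 1.65 FPKM and Fcgr1 and Retnlg below it. Among all genes with 1 to 3 FPKM in the higher genotype, 40.6% were higher by 2-fold in JunB cKO. With the receptor median subtracted from both columns, 1 member remained past the limit and the median log2 ratio of the members was 0. The share of each member's value that this signal makes up was not tested.

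Of the members above the receptor level, some were close in the 2 genotypes and some were not. Ptprc, the CD45 phosphatase of leukocytes, stood at 2.1 FPKM in wild type and 1.91 FPKM in JunB cKO, a ratio of 0.910 (95% counting interval 0.637 to 1.26). Cd3e, a chain of the T cell receptor complex, stood at 4.50 and 6.17 FPKM, a ratio of 1.37 (0.925 to 2.02), and Cd3g at 5.61 and 4.15 FPKM, a ratio of 0.739 (0.410 to 1.26). These 3 intervals include 1. Csf1r stood at 3.80 and 4.04 FPKM, and Tyrobp, the adaptor chain of activating myeloid receptors and the macrophage member with the highest value here, at 8.35 and 4.36 FPKM on about 51 and 8 reads, a ratio of 0.522 (0.218 to 1.13). Laptm5, a lysosomal protein of blood cells, was the highest of the genes shared by leukocytes, at 2.72 and 3.83 FPKM, beside Coro1a, an actin regulator of leukocytes, at 1.40 and 2.15 FPKM. The macrophage genes Cd68, a lysosomal membrane protein, and Fcer1g stood at 2.05 and 4.97 FPKM, a ratio of 2.42 (1.36 to 4.03), and at 3.88 and 6.14 FPKM, a ratio of 1.58 with an interval that includes 1, whereas Fcgr3 stood at 4.16 and 2.44 FPKM. Lyz2 stood at 0.691 and 1.64 FPKM, at the receptor level in JunB cKO, and Nkg7, a granule protein of cytotoxic cells, at 1.74 and 3.60 FPKM. Of the 43 members, 37 had a higher and 6 a lower value in JunB cKO. Over all 26340 genes, 14805 had a higher and 8886 a lower value, and 5788 were at 0 in wild type only against 309 in JunB cKO only. Among genes with at least 1 FPKM in either genotype, 7492 had a higher and 8388 a lower value.

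Cd207 was the most abundant member of the unperturbed samples and the one whose counting interval lay below 1. It stood at 23.4 FPKM in wild type and 15.2 FPKM in JunB cKO, on about 524 and 100 reads, a ratio of 0.650 (95% counting interval 0.517 to 0.803). Of the 29 members above 0 in both genotypes, 7 had an interval above 1, and 4 of these an interval at or above 2, namely Cd4, Foxp3, Cd163 and Clec4a3. Cd4, the helper T cell co-receptor, stood at 0.102 and 1.18 FPKM, and Foxp3, the factor of regulatory T cells, at 0.335 and 1.44 FPKM. Cd163 stood at 0.112 and 1.05 FPKM and Clec4a3, a myeloid lectin receptor, at 0.0611 and 1.04 FPKM. The JunB cKO values of these 4 genes lay below the 95th percentile of the receptor genes. Counting intervals were not calculated over all genes, so the counts of members with an interval above 1 have no background share.

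The sparse lineages of the unperturbed samples were read from few reads. The 6 neutrophil members summed to 0.185 FPKM in wild type and 4.68 FPKM in JunB cKO, with Csf3r, the G-CSF receptor, listed at 0 and at 0.649 FPKM. The 6 mast cell members summed to 0.122 and 3.75 FPKM, with Cpa3 at 0.0472 and 0.481 FPKM. The 3 B cell members summed to 0.0525 and 1.25 FPKM, with Cd79b as the highest, listed at 0 and at 0.603 FPKM. Mpo and Elane, granule enzymes of immature neutrophils, stood at 0.171 and 0.558 FPKM in JunB cKO, on about 2 reads each, and were at 0 in wild type.

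A wider list of 129 genes of these lineages, not every one of which each table lists, was read in the same way. Past the limit were 4 of 25 macrophage genes, 5 of 17 neutrophil genes, 3 of 8 B cell genes, 3 of 24 T and NK cell genes, 3 of 12 mast cell genes, 1 of 10 genes of Langerhans and dendritic cells and 1 of 5 of eosinophils and basophils, all higher in JunB cKO, beside 1 mast cell gene and 1 of 17 pan-leukocyte genes that were lower. Over all genes with at least 1 FPKM 15.4% were higher and 1.4% lower. At that level stood 15 of the macrophage genes, 9 of the neutrophil, 3 of the B cell and 14 of the T and NK cell genes. So did 7 mast cell genes, 7 of Langerhans and dendritic cells, 1 of eosinophils and basophils and 7 pan-leukocyte genes. Among the neutrophil genes, Stfa2l1 was listed at 0 and stood at 3.76 FPKM, Lcn2 stood at 0.907 and 5.53 FPKM and S100a8 at 2.16 and 9.43 FPKM, where Lcn2 and S100a8 are also made by stressed keratinocytes. The macrophage genes Aif1 (0.0877 and 1.78 FPKM), Ly6c2 (0 and 1.34 FPKM) and Marco (0 and 1.12 FPKM), the B cell genes Pou2af1 (0 and 2.04 FPKM), Fcer2a (0.0322 and 1.53 FPKM) and Fcrla (0 and 1.24 FPKM), and the T and NK cell genes Eomes (0 and 1.16 FPKM), Cd28 (0.0718 and 1.27 FPKM) and Il2ra (0.112 and 1.28 FPKM) stood at 2.04 FPKM or less in JunB cKO, beside 1.65 FPKM for the 95th percentile of the receptor genes. In that range were also the mast cell genes Cd200r3 (0 and 1.89 FPKM), Mcpt2 (0 and 1.56 FPKM) and Tpsab1, with Batf3 (0 and 1.18 FPKM), a factor of dendritic cells, and Prg2 (0 and 1.26 FPKM), a granule protein of eosinophils. Lower in JunB cKO were Hpgds, a prostaglandin D synthase, at 29.1 and 11.6 FPKM, and Cd52, a surface glycoprotein of lymphocytes, at 8.41 and 2.65 FPKM. Hpgds is the lower gene of the mast cell list, yet the 6 mast cell members summed to 0.122 and 3.75 FPKM, and its cell of origin was not tested. Of the genes whose proteins the study stained in skin, Itgb2 (CD18) stood at 0.733 and 0.829 FPKM and Ly6c1 at 6.09 and 12.2 FPKM, and Adgre1 (F4/80) was not analysed here for these samples.

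After hair plucking, the comparison concerned skin 4 days after a mild injury, and the macrophage members were lower in JunB cKO. Of the 43 members 15 were lower and 2 were higher, where 16% of all genes were lower and 18.2% were higher. The median log2 ratio of the 43 members was 0, as was that of all genes, with 14 members listed at 0 in both genotypes. Of the 27 members with at least 1 FPKM in either genotype the median log2 ratio was -1.07, beside 0.03 over all genes at that level. By lineage, 9 of 12 macrophage members were lower and 0 higher, against 2 of 3 pan-leukocyte members lower, 2 of 12 T and NK cell members lower and 2 higher, 1 of 6 neutrophil members and 1 of 6 mast cell members lower, and 0 of 3 B cell members and Cd207 past the limit in neither direction. The macrophage members summed to 343 FPKM in wild type and 106 FPKM in JunB cKO, a ratio of 0.310.

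The macrophage members that passed the limit included receptors, enzymes and signaling chains. Lyz2 stood at 136 FPKM in wild type and 51.5 FPKM in JunB cKO, which was 2.64-fold lower (95% counting interval 2.43 to 2.87). Cd68 stood at 34.9 and 6.23 FPKM, 5.60-fold lower (4.42 to 7.10). Csf1r stood at 18.3 and 8.48 FPKM, 2.15-fold lower (1.94 to 2.39), the member just past the limit. The interval of Csf1r includes values under the limit, whereas those of Lyz2 and Cd68 lie above it.

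The genes of the scavenger receptors were lower as well. Mrc1 stood at 25.3 FPKM in wild type and 5.70 FPKM in JunB cKO, 4.44-fold lower (95% counting interval 3.98 to 4.97). Cd163 stood at 15.3 and 2.99 FPKM, 5.13-fold lower (4.35 to 6.10). The genes of both receptors were thus lower by a larger factor than Csf1r, on about 2133 and 1061 reads in wild type.

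Among the Fc receptor genes, Fcgr1 stood at 17.0 FPKM in wild type and 0.608 FPKM in JunB cKO, 28.0-fold lower (95% counting interval 17.5 to 46.0). Fcgr3, a low affinity Fc receptor, stood at 17.3 and 2.41 FPKM, 7.18-fold lower (5.13 to 10.6), and Fcer1g at 38.7 and 12.5 FPKM, 3.10-fold lower (2.39 to 4.00). Clec4a3 stood at 20.8 FPKM in wild type, on about 374 reads, and was listed at 0 in JunB cKO. Fcgr1 and Clec4a3 showed the largest differences of the macrophage members. Clec4a3 belongs to a gene family with close copies, so some of its reads may have been assigned elsewhere.

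The macrophage members that did not pass the limit were Tyrobp, Cd14 and Clec4e. Tyrobp stood at 18.4 and 14.5 FPKM, a ratio of 0.790 (95% counting interval 0.575 to 1.08). Cd14, the lipopolysaccharide co-receptor, stood at 0.760 and 1.30 FPKM, and Clec4e, a lectin receptor of activated macrophages, was listed at 0 in both genotypes. Tyrobp is used by NK cells as well, and its value differed less between the genotypes than that of the Fc receptor chain Fcer1g.

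Of the genes shared by leukocytes, Ptprc stood at 25.7 and 10.3 FPKM, 2.50-fold lower in JunB cKO (95% counting interval 2.29 to 2.73). Laptm5 stood at 23.2 and 6.02 FPKM, 3.85-fold lower (3.28 to 4.53). Coro1a stood at 4.41 and 5.11 FPKM, a ratio of 1.16 (0.881 to 1.54). The 3 genes did not move as 1 group, since Coro1a was at a similar level in both genotypes.

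The T and NK cell members were divided. Cd3g was the highest, at 39.6 FPKM in wild type and 20.6 FPKM in JunB cKO, just inside the limit with a log2 ratio of -0.91. Cd3e stood at 2.53 and 2.64 FPKM, a ratio of 1.04 (95% counting interval 0.683 to 1.60), and Cd3d was listed at 0 in both. The 3 CD3 chain genes were thus at unlike levels per length in these columns, and without Cd3g the summed FPKM ratio of the T and NK cell members was 1.11 in place of 0.627. Cd8a, the co-receptor of cytotoxic T cells, stood at 2.38 FPKM and was listed at 0 in JunB cKO, and Klrk1, the receptor NKG2D, stood at 2.23 FPKM and was listed at 0. Zap70, a kinase of T cell receptor signaling, and Nkg7 were at 0 in wild type, against 1.27 and 2.72 FPKM in JunB cKO. All 4 calls of this lineage rest on a value listed at 0. Cd2 stood at 1.20 and 3.10 FPKM, Cd4 at 0.417 FPKM and listed at 0, and Lck, Foxp3 and Gzmb were listed at 0 in both genotypes.

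Cd207 did not share the direction of the macrophage genes. The mast cell proteases above 0 were mixed in direction, with smaller differences than the macrophage members past the limit. Cd207 stood at 8.40 FPKM in wild type and 15.8 FPKM in JunB cKO, a ratio of 1.88 (95% counting interval 1.55 to 2.29), just inside the limit. Cpa3 had a higher value in JunB cKO, at 14.5 and 18.9 FPKM, a ratio of 1.30 (1.10 to 1.53). Cma1 had a lower one, at 20.4 and 16.3 FPKM, a ratio of 0.799 (0.661 to 0.963). Mcpt4 was also lower, at 9.48 and 7.58 FPKM, a ratio of 0.799 (0.603 to 1.05). Ms4a2, the β chain of the IgE receptor, was the mast cell member past the limit, at 3.02 and 0.922 FPKM, 3.28-fold lower (2.12 to 5.24). Tpsb2 and Fcer1a were listed at 0 in both genotypes. The 6 mast cell members summed to 47.3 and 43.6 FPKM, a ratio of 0.922.

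Most neutrophil and B cell members were listed at 0 in the plucked skin. Csf3r stood at 3.55 FPKM in wild type and 0.551 FPKM in JunB cKO, 6.45-fold lower (95% counting interval 4.22 to 10.5), and Trem1, Mpo, Elane, Ngp and Retnlg were listed at 0 in both genotypes. Of the B cell members, Ms4a1 stood at 0.874 FPKM in wild type and was listed at 0 in JunB cKO, and Cd79a and Cd79b were listed at 0 in both. Csf3r was therefore the neutrophil member that could be read.

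Values listed at 0 need care in this table. Of 219 genes of the listed leukocyte and other cell types, 67 were at 0 in wild type, 2 stood above 0 on fewer than 10 estimated reads and 150 on 10 or more, whereas in wounds 11, 13 and 195 genes fell into these classes. Of the 15 members called lower, 3 were at 0 in JunB cKO (Clec4a3, Cd8a and Klrk1), and both members called higher were at 0 in wild type. Of the 22 members above 0 in both genotypes, 14 had a counting interval below 1 and 11 of these an interval at or below 0.5, whereas 3 had an interval above 1. Counting intervals were not calculated over all genes, so these counts have no background share.

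Fibroblast and muscle genes had lower values in the plucked JunB cKO skin as well, and genes of other dermal cells were mixed. All 7 fibroblast genes had lower values, 4 of them past the limit, with Col3a1 at 2559 and 535 FPKM and Col1a1 at 1168 and 527 FPKM, and their median log2 ratio was -1.10, beside -1.97 over the 11 macrophage members with at least 1 FPKM. All 4 skeletal muscle genes were past the limit, with Ckm at 21.7 and 2.15 FPKM and a median log2 ratio of -2.18. The median log2 ratio was -0.33 over 5 endothelial genes, -0.83 over 4 adipocyte genes, 0.27 over 8 keratinocyte genes and 0.04 over 20 housekeeping genes. Among these, Pecam1 was at close levels in both genotypes, and the adipocyte gene Adipoq had a higher value in JunB cKO, at 8.76 and 17.4 FPKM. The summed level of the fibroblast genes was 5152 FPKM in wild type and 1869 FPKM in JunB cKO, and that of the keratinocyte genes 7851 and 9554 FPKM. The part of a smaller share of dermis in the lower macrophage values was not tested, and with 1 pooled library per genotype the biopsy and the genotype cannot be told apart.

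**Figure D4:**
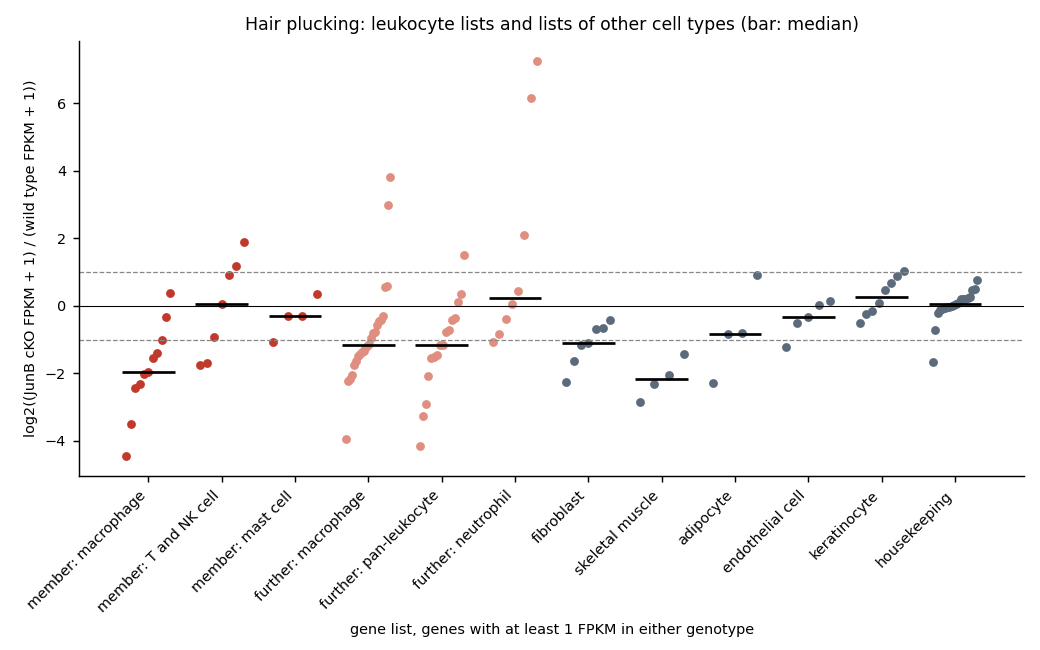
Hair plucking: log2((JunB cKO FPKM + 1)/(wild type FPKM + 1)) of each gene with at least 1 FPKM in either genotype (points) and the median of each list (bars), for leukocyte members, further leukocyte genes and genes of other cell types, with the 2-fold limit as dashed lines. The macrophage members have a median of -1.97, the fibroblast genes of -1.10 and the keratinocyte genes of 0.27.

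The wider lists after plucking held 13 of 26 macrophage genes and 9 of 18 pan-leukocyte genes that were lower, and 2 and 1 that were higher, beside 16% lower and 18.2% higher over all genes. Of these lists 24 macrophage and 16 pan-leukocyte genes had at least 1 FPKM. The macrophage genes Aif1 (14.5 FPKM and listed at 0), Fcgr4 (3.66 FPKM and listed at 0) and Clec10a (7.91 and 0.971 FPKM) differed most, and Adgre1, the gene of F4/80, stood at 9.98 and 2.26 FPKM. Clec4n and Ly6c2 went the other way, with 12.9 and 6.91 FPKM in JunB cKO against 0, and Ly6c1 stood at 22.7 and 18.4 FPKM. Of the pan-leukocyte genes, Cd52 (16.6 FPKM) and Spi1, the gene of PU.1 (8.53 FPKM), were listed at 0 in JunB cKO, Itgb2 stood at 20.4 and 1.85 FPKM, and Cytip, which was higher, at 2.24 and 8.10 FPKM. The genes of F4/80 and CD18 were thus lower in the plucked JunB cKO skin, in the direction of the macrophage members. The paper's stains of F4/80, Ly6C and CD18 were of neck skin, where it reported more macrophages and more inflammatory infiltrate in JunB cKO mice. Those are proteins at another site, with no plucking described, so they are not a like measure.

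In the neutrophil list 3 of 16 genes were higher and 1 was lower after plucking. Only 8 of the 16 had at least 1 FPKM. Of those 8, 37.5% were higher and 12.5% lower, where 18.2% and 16% of all genes at that level were. S100a8, a calprotectin subunit, was listed at 0 in wild type and stood at 152 FPKM in JunB cKO, its partner S100a9 stood at 2.56 and 250.4 FPKM, and Lcn2 at 2.32 and 13.0 FPKM, whereas Mxd1 stood at 56.6 and 26.5 FPKM. S100a8, S100a9 and Lcn2 are made by keratinocytes as well as neutrophils. Csf3r, a receptor of the neutrophil lineage, was lower in JunB cKO. Mxd1 was lower as well, at values above the sum of the 6 neutrophil members (3.55 and 0.551 FPKM). The cell of origin of these transcripts was not tested. Of 26 T and NK cell genes 5 were higher and 4 lower, which was 38.5% and 30.8% of the 13 with at least 1 FPKM. Cd7 (7.74 FPKM), Ctla4 (6.48 FPKM) and Txk (1.39 FPKM) were listed at 0 in wild type, and Lat (1.52 FPKM) in JunB cKO. Xcl1 stood at 10.9 and 3.86 FPKM and Il2rb at 1.98 and 0.367 FPKM. In the mast cell list Kit, the stem cell factor receptor that melanocytes also carry, stood at 1.92 and 18.7 FPKM, and Hdc, the histamine synthesis enzyme, stood at 4.91 FPKM and was listed at 0 in JunB cKO. Of the antigen-presenting cell genes, Cd86 stood at 12.4 and 4.06 FPKM, and Ccr7 (1.31 FPKM) and Ltc4s (4.45 FPKM) were listed at 0 in wild type, as were the B cell genes Mzb1 (1.54 FPKM) and Fcer2a (1.46 FPKM).

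In wounds 30 days after injury, few leukocyte genes differed by the limit. Of the 43 members 1 was higher in JunB cKO (Csf3r) and 0 were lower, where 5.69% of all genes were higher and 5.23% were lower. The median log2 ratio was 0.15 over the 43 members and 0 over all genes, and 0.34 over the 32 members with at least 1 FPKM in either genotype, beside 0.01 over all genes at that level. Csf3r stood at 1.80 FPKM in wild type and 5.60 FPKM in JunB cKO, a ratio of 3.11 (95% counting interval 2.68 to 3.58). Of the other neutrophil members, Retnlg stood at 0.546 and 1.72 FPKM, Trem1, an amplifier of myeloid activation, at 0.431 and 0.593 FPKM and Ngp at 0.0903 and 0.0247 FPKM, and Mpo and Elane were listed at 0 in both genotypes.

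None of the 12 macrophage members of the wounds passed the limit, and several were abundant. Lyz2 stood at 311 FPKM in wild type and 305 FPKM in JunB cKO, a ratio of 0.981, on about 15042 and 13712 reads. Csf1r stood at 24.6 FPKM in both genotypes, a ratio of 0.997 (95% counting interval 0.957 to 1.04), and Mrc1 at 52.4 and 47.7 FPKM, a ratio of 0.911 (0.886 to 0.935). The 12 macrophage members summed to 526 and 535 FPKM, a ratio of 1.02. Cd68 (16.4 and 21.4 FPKM), Tyrobp (21.1 and 30.1 FPKM) and Fcer1g (31.7 and 40.7 FPKM) had higher values in JunB cKO, and Cd163 (15.7 and 13.4 FPKM), Fcgr3 (29.5 and 25.0 FPKM) and Cd14 (2.82 and 2.61 FPKM) had lower ones. The widest differences among them were those of Fcgr1, at 4.91 and 2.57 FPKM, Clec4a3, at 13.3 and 20.5 FPKM, and Clec4e, at 2.57 and 1.39 FPKM. The genes that differed most after plucking, Fcgr1 and Clec4a3, lay on opposite sides of equal levels here.

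The mast cell members of the wounds had higher values in JunB cKO without passing the limit. Cma1 stood at 29.7 and 51.5 FPKM, a ratio of 1.74 (95% counting interval 1.61 to 1.87), Mcpt4 at 28.3 and 49.5 FPKM, a ratio of 1.75 (1.63 to 1.89), and Tpsb2 at 6.54 and 11.7 FPKM, a ratio of 1.79 (1.55 to 2.07). Cpa3 stood at 35.7 and 49.1 FPKM, a ratio of 1.38 (1.30 to 1.46), Ms4a2 at 3.11 and 4.64 FPKM, and Fcer1a at 0.111 and 0.949 FPKM. All 6 members lay above equal levels, their median log2 ratio was 0.77 and their FPKM summed to 103 and 167, a ratio of 1.62. Adipocyte genes, of another dermal cell type, had a median log2 ratio of 0.69 in the same columns, with Adipoq at 58.4 and 116 FPKM. Red blood cell genes had a median of 0.65 and a summed FPKM ratio of 1.59. The medians were 0.19 for endothelial, 0.13 for skeletal muscle, 0.07 for keratinocyte, 0.02 for fibroblast and -0.03 for housekeeping genes. Their summed ratios were 1.34, 1.18, 1.32, 1.27 and 1.31. The relation of these lists to the mast cell values was not tested.

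In wounds no pan-leukocyte, T and NK cell or Langerhans cell member passed the limit, though Cd3e, Nkg7 and Cd3d, at low level, differed by 2-fold or more in FPKM. Ptprc stood at 35.2 and 42.5 FPKM, a ratio of 1.21 (95% counting interval 1.17 to 1.25), and Coro1a at 11.5 and 19.8 FPKM, a ratio of 1.72 (1.57 to 1.89). Cd3e stood at 0.750 and 2.29 FPKM, a ratio of 3.05 (2.12 to 4.46), which stayed inside the limit because the pseudocount of 1 damps low genes, and Cd3g, the highest of its lineage, at 8.31 and 10.7 FPKM. Klrk1 (4.93 and 3.61 FPKM), Cd2 (2.93 and 1.78 FPKM) and Lck, the kinase of the CD4 and CD8 co-receptors (2.77 and 2.62 FPKM), had lower values in JunB cKO, and Cd4 (2.38 and 3.45 FPKM), Nkg7 (0.665 and 1.90 FPKM, interval 1.64 to 4.95), Zap70 (0.922 and 1.31 FPKM) and Foxp3 (0.669 and 1.20 FPKM, interval 1.40 to 2.31) had higher ones. Cd8a stood at 0.357 and 0.358 FPKM, Cd3d at 0.321 and 0.0446 FPKM, 7.21-fold lower (1.84 to 32.6) on about 20 and 3 reads, and Gzmb, a killer cell protease, at 0.422 FPKM and listed at 0. Cd207 stood at 4.66 and 4.79 FPKM, a ratio of 1.03 (0.862 to 1.22). Of the B cell members, Ms4a1 stood at 0.0481 FPKM in wild type and was listed at 0 in JunB cKO, and Cd79b at 0.325 and 0.703 FPKM. Of 38 members above 0 in both genotypes, 21 had a counting interval above 1 and 8 below 1, intervals that count reads and hold no spread between mice. They were not calculated over all genes, so these counts have no background share. Intervals of housekeeping genes could exclude 1 as well, as for Eef1a1 (2.16 to 2.18) and Hsp90ab1 (0.802 to 0.816), whereas that of Gapdh included it (0.896 to 1.04).

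**Figure D5:**
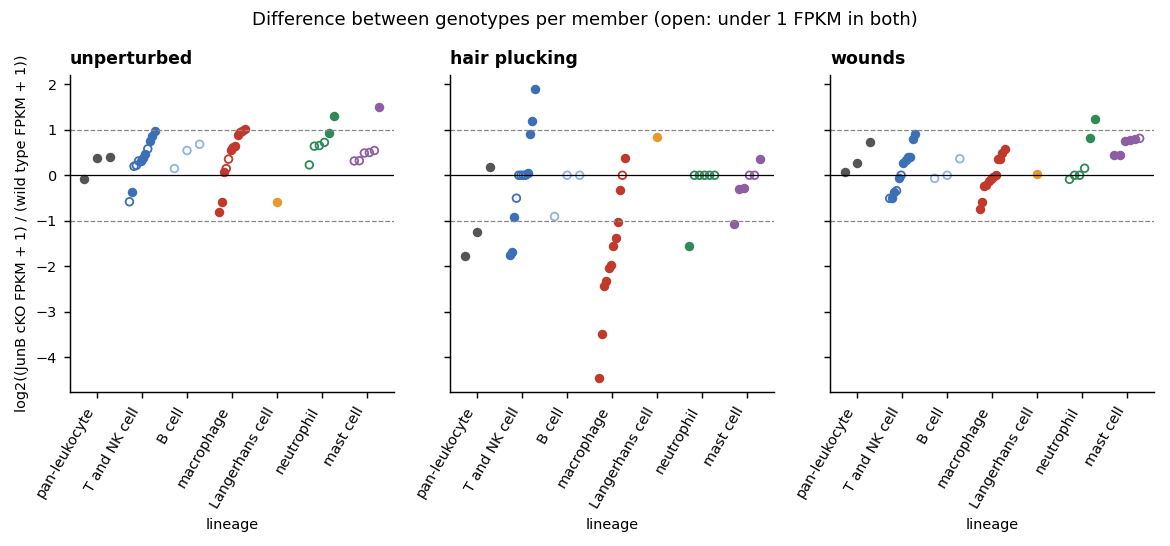
log2((JunB cKO FPKM + 1)/(wild type FPKM + 1)) of each member (points) by lineage in the 3 tables, with open points for members under 1 FPKM in both genotypes and dashed lines at the 2-fold limit. In the plucking panel 9 macrophage members pass the lower limit. Also past it are 2 pan-leukocyte, 2 T and NK cell, 1 neutrophil and 1 mast cell members. The upper limit is passed by 2 members in that panel, 3 in the unperturbed panel and 1 in the wound panel.

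In the wider lists of the wounds, 0 of 26 macrophage genes, 0 of 18 pan-leukocyte genes and 0 of 12 mast cell genes passed the limit, where 5.69% of all genes were higher and 5.23% lower. The 12 further mast cell genes had a median log2 ratio of 0.09 and a summed FPKM ratio of 1.24. Adgre1 stood at 16.0 and 16.1 FPKM, Itgb2 at 30.0 and 36.6 FPKM, Ly6c1 at 58.1 and 46.7 FPKM and Ly6c2 at 6.28 and 9.47 FPKM. In the neutrophil list 3 of 16 genes, 10 of them with at least 1 FPKM, were higher. They were S100a9 at 10.9 and 77.5 FPKM, S100a8 at 36.7 and 139 FPKM and Lcn2 at 2.70 and 12.4 FPKM. Of 26 T and NK cell genes, 16 of them with at least 1 FPKM, 3 were higher and 1 was lower. The higher ones were Trbc2 at 9.15 and 21.4 FPKM, Lat at 1.25 and 3.88 FPKM and Cd7 at 0.762 and 2.73 FPKM. Cd27, a co-stimulatory receptor, was lower, at 19.0 and 2.50 FPKM. The B cell genes Jchain, a chain of secreted antibodies, and Cd22 stood at 3.98 and 13.2 FPKM and at 0.396 and 2.01 FPKM. The genes of F4/80 and CD18 were thus at similar levels in both genotypes of the wounds.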

How the data were processed

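RNA of several samples of a group was pooled, and stranded libraries were prepared after removal of ribosomal RNA and read from a single end. After trimming with the FASTX toolkit, the authors used TopHat and HISAT2 for alignment to the mouse genome GRCm38 (mm10), Cufflinks for the loci and Cuffdiff for the comparison of genotypes. The deposited tables hold 1 FPKM value per genotype and locus, calculated by the authors, beside the authors' own fold changes, test statistics and p-values, which were not used. The condition of the plucking and wound tables comes from the names of the tables.

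From the FPKM values, 1 locus per symbol (the largest summed FPKM) was kept. Differences are log2((JunB cKO + 1)/(wild type + 1)), called at 2-fold, a scale that understates the change of low genes. With 1 value per genotype no test was run and no gene was filtered out before a call. Reads were estimated from the FPKM steps of genes with 1 exon and from the longest coding transcript of GENCODE M21 less 200 bases, and gave 95% ratio intervals (exact binomial, Clopper-Pearson), which are approximate and cover counting error alone. A low value was taken as whole when it differed from the nearest whole read number by at most 0.02 times that number. This held for 98.7% and 99.5% (unperturbed), 100% and 100% (plucking), and 69.9% and 100% (wounds) of low values. The 2 wound libraries of each genotype share a column, so their reads are the roughest.

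The members and gene lists were chosen with earlier results of these data known. Values were given for members past the limit, for the highest member of each lineage and for Ptprc, Cd3e, Cd79a, Csf1r, Cd207, Csf3r and Cpa3, and for the 3 further genes per lineage and direction that differed most at 1 FPKM or more, with Adgre1, Itgb2, Ly6c1 and Ly6c2. The values of other members were added to account for the list. Alternatives changed the pseudocount, the filter, the fold limit, the centring and the locus rule. Python 3.11.15, pandas 2.3.3, NumPy 2.4.6, SciPy 1.17.1 and matplotlib 3.10.9 were used.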

Additional observations from a re-analysis of the deposited data

Results flagged for a closer look

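For 2 members the log2 ratio with the pseudocount of 1 passed the 2-fold limit in opposite directions in 2 tables. By FPKM ratio alone further members did so, among them Cd68, Lyz2, Mrc1 and Cd163. Each of those was higher in JunB cKO in unperturbed samples and lower after plucking, whereas Cd2 had the reverse. Fcgr1 was listed at 0 in wild type and stood at 1.01 FPKM in JunB cKO in unperturbed samples, and at 17.0 and 0.608 FPKM after plucking, so its log2 ratio differed by 4.49 between these tables. Csf3r stood at 3.55 and 0.551 FPKM after plucking and at 1.80 and 5.60 FPKM in wounds, a difference of -2.79 on the log2 scale. Neither difference was tested, since each table holds 1 value per genotype. The unperturbed value of Fcgr1 in JunB cKO lay below the 95th percentile of the receptor genes (1.65 FPKM), and both plucking values of Csf3r rest on about 190 and 23 reads.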

How the results depend on the processing

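Each comparison rests on 1 value per genotype, so the limits are of depth, of low values and of values listed at 0. In unperturbed samples, the counts of 3 higher and 0 lower members and the median log2 ratio of 0.49 became 27, 1 and 1.44 with a pseudocount of 0.1, and 27, 1 and 2.42 with 0.01. Centred on genes with at least 1 FPKM in both genotypes (a shift of -0.15), 9 members were higher and the median was 0.64. With the receptor median subtracted 1 was higher and the median was 0. At a 1.5-fold limit 16 were higher and 3 lower, and at 3-fold 0 were higher. After plucking, the median of 0 became -1.07 with at least 1 FPKM in either genotype and -1.04 for loci of OK status, and the counts of 2 higher and 15 lower became 4 higher at 1.5-fold, and 1 and 9 at 3-fold. In wounds, 1 higher, 0 lower and a median of 0.15 became 5, 2 and 0.27 with a pseudocount of 0.1 and 6, 4 and 0.27 with 0.01. The median was 0.34 with at least 1 FPKM and 0.35 for loci of OK status, 10 were higher and 1 lower at 1.5-fold, and 0 were higher at 3-fold. Summed FPKM ratios moved without the leading gene for B cell members (23.7 to 12.2, without Cd79b) and mast cell members (30.7 to 15.9, without Tpsb2) of unperturbed samples and for T and NK cell members after plucking (0.627 to 1.11, without Cd3g). Filters chosen after seeing the data gave, with at least 10 estimated reads, 1 higher in unperturbed samples and medians of -1.02 after plucking and 0.30 in wounds. Without genes at 0 in either genotype they gave 0 higher and a median of 0.38 in unperturbed samples, 0 higher and -1.04 after plucking, and 0.30 in wounds. The other 68 values were classed as unchanged, which allowed counts to change by up to 1.5-fold and medians by less than 0.1. That class held summed ratios of unperturbed samples that shifted without 1 gene. The neutrophil ratio went from 25.3 to 17.3 without Retnlg, and the macrophage ratio from 1.19 to 1.57 without Tyrobp. The cause of a change was not tested beyond what an alternative's construction shows. No paired analysis was possible because the wound table joins the numbered libraries in 1 value per genotype, and leaving out a wound library could not be run.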
